A study of Mus musculus with 20 samples.

Results

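The 10 genes described here are the glutathione transferase genes Gstm1, Gstm2, Gstm3, Gstm4, Gsta2, Gsta4 and Gstp1, together with Nqo1, Gclc and Srxn1, which are known targets of the transcription factor NRF2. They were taken by gene symbol, after Ensembl identifiers had been matched to GRCm38 symbols, and all 10 were found in both count tables. These tables list 26286 genes (overexpression) and 27052 genes (knockdown). Total RNA was sequenced from the livers of 20 male C57BL/6J mice on a diet labelled HF/HS, all of which carried AAV8, a viral vector with a preference for liver, from 8 weeks of age until 25 weeks. In the overexpression experiment, 5 livers carried the cDNA of Pklr, the gene of liver pyruvate kinase (PKLR), and 5 carried green fluorescent protein (GFP). In the knockdown experiment, 5 livers carried a hairpin RNA against Pklr (shPKLR) and 5 a hairpin against firefly luciferase (shLUC). Expression was driven by the thyroxine binding globulin promoter, a hepatocyte promoter, so other liver cells were not the aim of the transgene. No group was free of vector or of the diet, and each experiment has a control vector of its own, so GFP and shLUC livers differ in both vector and experiment.

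Glutathione transferases join the thiol of glutathione to reactive compounds such as drugs, quinones and products of lipid oxidation, and are abundant in hepatocytes. They are grouped in classes, among them mu (Gstm genes), alpha (Gsta genes) and pi (Gstp genes). NRF2, the product of Nfe2l2, is held at low levels by KEAP1 and, when released by oxidants or electrophiles, binds antioxidant response elements (ARE) near genes of this kind; several transferase genes also respond to the xenobiotic receptors CAR and PXR.

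Many of these genes have close copies in the genome, which bears on how reads can be assigned, so short stretches of coding sequence are shown with the bases that differ between copies in capitals. All sequences run 5′ to 3′ on the coding strand. The 4 mu genes lie in 1 cluster on the minus strand of chromosome 3, with Gstm3 at 107963696 to 107969283 and Gstm4 ending at 108044894 (GRCm38). The coding sequences of Gstm3 and Gstm1 were 89.4% identical over 654 bases, and bases 595 to 654 of each, where they differ at 16 positions, read:
Gstm3: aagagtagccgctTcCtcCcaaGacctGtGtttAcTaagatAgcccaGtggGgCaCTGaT
Gstm1: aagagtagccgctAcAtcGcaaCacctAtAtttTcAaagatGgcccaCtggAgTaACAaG
Gsta2 (chromosome 9, 78331018 to 78355788, minus strand) shares a region with Gsta4 (78182774 to 78209349) and Gclc (77754535 to 77794485), both on the plus strand. Gsta2 was 97.6% identical in coding sequence to Gsta1 but only 66.7% to Gsta4, and coding bases 449 to 508 of Gsta2 and Gsta1, with 5 differences, read:
Gsta2: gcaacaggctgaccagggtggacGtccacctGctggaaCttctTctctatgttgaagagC
Gsta1: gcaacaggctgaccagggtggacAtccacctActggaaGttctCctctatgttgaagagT
Gstp1 (chromosome 19, 4035407 to 4037985, minus strand) was 98.1% identical to its neighbour Gstp2, with 12 differences in 630 coding bases, of which 6 fall in the first 60:
Gstp1: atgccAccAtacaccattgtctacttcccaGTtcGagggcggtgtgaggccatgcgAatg
Gstp2: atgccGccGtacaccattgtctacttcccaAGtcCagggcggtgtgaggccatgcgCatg

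Of all stretches of 50 bases in the annotated transcripts, 49.8% of those of Gsta2, 33.7% of Gstp1, 28.8% of Gstm3, 18.9% of Gstm1 and 5.65% of Gstm2 also occur in another gene. For Gstm4, Gsta4, Nqo1, Gclc and Srxn1 the share was 0%. Counts at Gstp2 were 0.352 to 0.597 times those at Gstp1 over the 20 livers, and counts at the pseudogene Gstp-ps 0.379 to 0.62 times. How the counting treated reads that map to several copies is not given in the sources used here, so values of Gstp1, Gsta2 and, to a lesser degree, Gstm3 and Gstm1 are uncertain as to which copy they belong to.

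Promoters in the RefSeq table of GRCm38.p6, each covering 250 bases before and 50 after an annotated start, were found for 8 of the 10 genes (10 starts). They were searched on both strands for the ARE core TGACNNNGC. In this exact form the core was present at 1 of these 10 starts, that of Srxn1, against 12.4% of all 32851 promoters in the table. It lies on the opposite strand at bases 279 to 287 of the window, 29 bases after the start, and is in capitals below. The promoters of Gstm3 and Gsta2, the transferases with the widest differences below, are shown beside it. A match is no evidence of binding, and these windows leave out more distant elements. Related stretches with G in place of the C of TGAC were not searched, such as TGAGTCAGC in the Srxn1 and Gstp1 windows.
Srxn1, chr2:152105274-152105573, plus strand: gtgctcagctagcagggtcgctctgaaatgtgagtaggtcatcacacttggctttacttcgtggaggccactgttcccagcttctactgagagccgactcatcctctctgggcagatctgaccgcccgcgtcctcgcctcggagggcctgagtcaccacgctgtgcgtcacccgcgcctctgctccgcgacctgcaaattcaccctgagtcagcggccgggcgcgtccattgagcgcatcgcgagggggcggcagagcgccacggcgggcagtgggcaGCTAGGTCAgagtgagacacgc
Gstm3, chr3:107969125-107969424, minus strand: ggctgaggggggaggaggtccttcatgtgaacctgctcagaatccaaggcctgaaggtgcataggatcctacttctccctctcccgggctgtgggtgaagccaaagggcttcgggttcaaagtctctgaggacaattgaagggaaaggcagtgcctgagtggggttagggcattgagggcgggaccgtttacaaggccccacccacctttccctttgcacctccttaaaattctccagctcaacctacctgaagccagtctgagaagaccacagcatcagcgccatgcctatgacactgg
Gsta2, chr9:78347096-78347395, minus strand: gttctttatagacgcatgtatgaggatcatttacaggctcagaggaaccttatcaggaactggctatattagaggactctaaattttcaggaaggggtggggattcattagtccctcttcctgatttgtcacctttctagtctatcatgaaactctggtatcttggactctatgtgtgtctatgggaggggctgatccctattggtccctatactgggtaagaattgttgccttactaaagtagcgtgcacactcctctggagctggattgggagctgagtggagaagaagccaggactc

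Levels are given as CPM, counts per 1e+06 counts of the library, scaled over all 20 livers by the TMM method, with single livers in order of replicate number. Depth was 29933820 to 45413803 counts in all but shPKLR replicate 4, which held 167891680. The lowest count of any of the 10 genes was 100, for Nqo1 in shLUC replicate 1 (3.46 CPM, 95% Poisson interval 2.82 to 4.21, counting error only), an interval narrower than the spread between livers. Pklr followed the vectors, at 742 ± 210 CPM in PKLR livers against 118 ± 34.5 CPM in GFP livers, and at 54.9 ± 23.3 CPM in shPKLR livers against 479 ± 116 CPM in shLUC livers (SD, n = 5 each). The 5 hepatocyte markers found in both tables, among them Alb and Apoa1, summed to at least 60080 CPM in every liver.

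Per kilobase of annotated exon, Gstm1 and Gstp1 were the most abundant of the 10 in every group and Nqo1 the least. In PKLR livers mean levels were 867 CPM per kilobase for Gstm1, 557 for Gstp1, 91.4 for Gclc, 35.2 for Gstm3, 31.1 for Gstm2, 28.6 for Gstm4, 24.3 for Gsta4, 16.9 for Srxn1, 9.501 for Gsta2 and 4.54 for Nqo1. GFP livers had 129 ± 59.4 CPM per kilobase of Gstm3 (SD, n = 5) and 34.5 ± 14.2 of Gsta2, so that Gstm3 did not differ from Gclc (86.9 ± 20.2), nor Gsta2 from Gstm2 (40.9 ± 6.90) and Gstm4 (32.4 ± 1.96), beyond their spread. Among shPKLR livers Gstp1, at 1057 ± 469 CPM per kilobase, and Gstm1, at 950 ± 299, did not differ beyond their spread. In shLUC livers Gstm1 averaged 746 CPM per kilobase, Gstp1 427 and Gclc 89.3, and Gstm2, Gstm3, Gstm4 and Gsta4 followed in descending order between 38.5 and 24.0, with no neighbours in that order further apart than their spread.

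**Figure D1:**
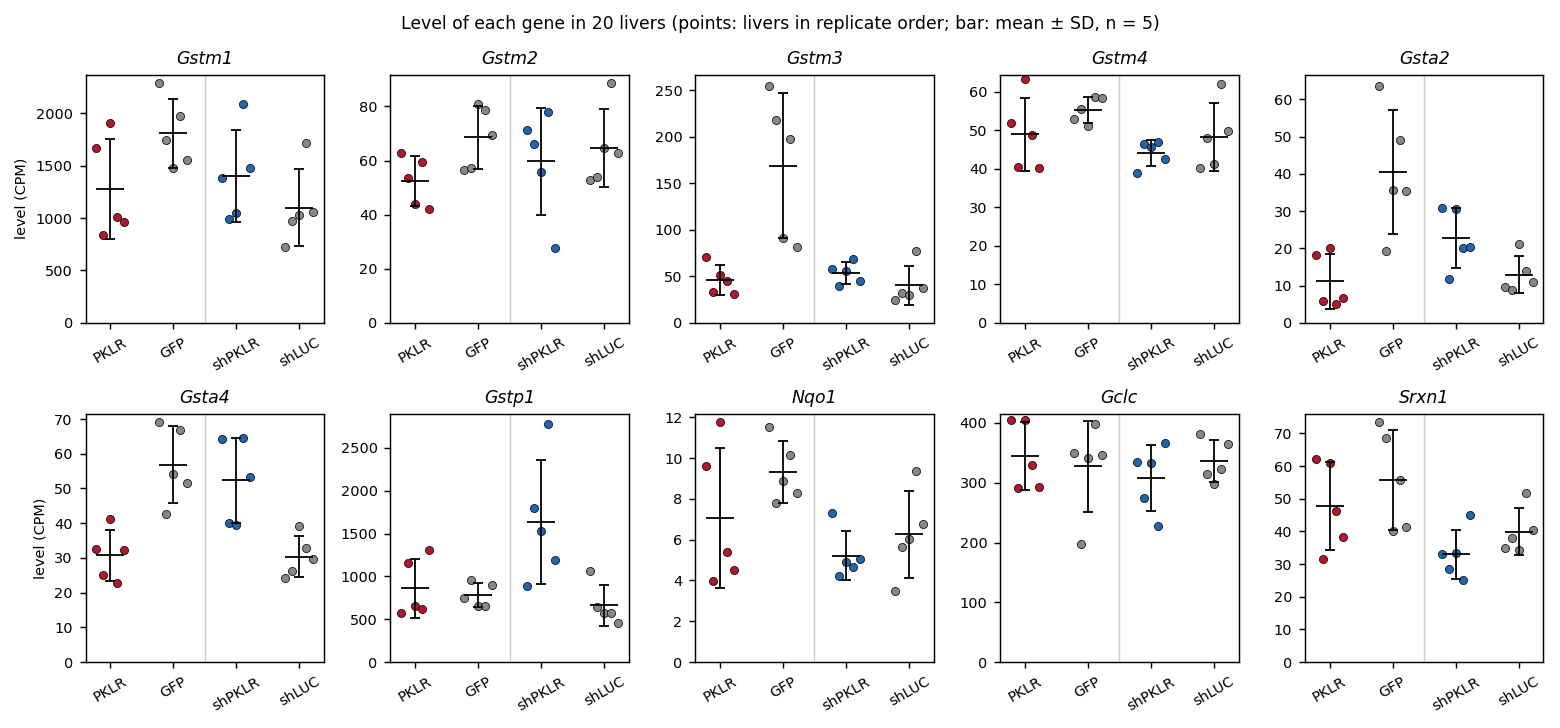
Level of each of the 10 genes (CPM, linear axis from 0) in the 20 livers, by vector. Points are livers in replicate order, and bars are the mean ± SD of 5 livers. Gstm3 and Gsta4 in the 5 PKLR livers lie below every GFP liver, while Gclc and Gstm4 overlap in both experiments.

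The overexpression experiment addressed what extra Pklr in hepatocytes does to liver transcripts. Of the 10 genes, 2 fell in PKLR livers, Gstm3 and Gsta4, and none rose (edgeR quasi-likelihood test, Benjamini-Hochberg adjusted p under 0.05 over all genes tested). Of all 15842 genes tested, 2.03% were called, 0.846% lower and 1.19% higher. The 10 genes were chosen with earlier results of these data known. Shares of all genes, here and below, are therefore background and cannot test whether calls are enriched among the 10. At an unadjusted p under 0.05, which 18.8% of all genes reached, 4 of the 10 were lower and 0 higher. DESeq2 and limma-voom each called 3 lower and 0 higher. Over all genes DESeq2 called 1107, against 322 by edgeR. The 8 alternative settings, DESeq2 and limma-voom among them, called from 258 to 1107 of all genes. Log2 fold changes were negative for 8 of the 10 genes, with a median of -0.38 against 0.0057 over all genes tested. All 10 passed the filter on low counts in both experiments.

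Gstm3, a mu-class transferase, stood at 70.8, 33.1, 51.2, 44.5 and 31.2 CPM in the 5 PKLR livers, against 255, 218, 91.3, 197 and 81.4 CPM in the 5 GFP livers. The lowest GFP liver was still above the highest PKLR liver, and 3 of the GFP livers lay well above the other 2. The PKLR mean was 0.274 times the GFP mean, and the log2 fold change was -1.85 (SE 0.36, edgeR adjusted p = 0.032). Its size was similar with any 1 liver left out (-2.06 to -1.65), but the adjusted p then ran from 0.0174 to 0.078. The call was lost without GFP replicate 1, 2 or 4, without PKLR replicate 2, 3, 4 or 5, and with no filter on low counts (adjusted p = 0.079).

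Gsta4, an alpha-class transferase that conjugates 4-hydroxynonenal, a product of lipid peroxidation, stood at 32.6, 25.0, 41.2, 22.6 and 32.2 CPM in PKLR livers, against 69.2, 42.6, 54.1, 66.7 and 51.6 CPM in GFP livers. Here too the groups did not overlap, although PKLR replicate 3 and GFP replicate 2 came close. The PKLR mean was 0.541 times the GFP mean (log2 fold change -0.87, SE 0.18, edgeR adjusted p = 0.0329). This call held in 3 of 10 fits with 1 liver left out and was lost without GFP replicate 1, 3 or 4 and without PKLR replicate 1, 2, 4 or 5 (log2 fold change -1.01 to -0.77). Of the 16407 genes past the filter over all 20 livers, 2.13% had every PKLR liver below every GFP liver.

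Gsta2, another alpha-class gene, was at 18.3, 5.72, 20.2, 5.11 and 6.62 CPM in PKLR livers, against 63.7, 19.1, 35.7, 49.0 and 35.3 CPM in GFP livers. Its groups overlapped by 1 liver, GFP replicate 2, which lay just below the highest PKLR liver. The estimate was as large as that of Gstm3 but less precise (log2 fold change -1.84, SE 0.46, edgeR adjusted p = 0.0764). DESeq2 (adjusted p = 0.00748), limma-voom (adjusted p = 0.0433) and 1 fit of all 20 livers (adjusted p = 0.0207) did call it. The near-identical Gsta1 averaged 17.1 ± 16.4 CPM in PKLR livers and 86.9 ± 72.6 CPM in GFP livers (SD, n = 5 each), without overlap (log2 fold change -2.32, SE 0.72, edgeR adjusted p = 0.119). With the counts of both copies summed, the log2 fold change was -2.15 (edgeR adjusted p = 0.102).

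The other 3 mu genes had smaller estimates. Gstm1, the most abundant of them per kilobase, was at 1667, 843, 1909, 1005 and 964 CPM in PKLR livers, against 2293, 1743, 1477, 1971 and 1558 CPM in GFP livers. PKLR replicates 1 and 3 lay within the GFP range and the other 3 PKLR livers below it (log2 fold change -0.49, SE 0.23, edgeR adjusted p = 0.278). Gstm2 averaged 52.3 ± 9.21 CPM in PKLR livers and 68.6 ± 11.6 CPM in GFP livers (log2 fold change -0.38, SE 0.14, edgeR adjusted p = 0.163). Gstm4 averaged 48.9 ± 9.54 and 55.3 ± 3.34 CPM in these groups (log2 fold change -0.16, SE 0.11, edgeR adjusted p = 0.47). By position Gstm3 and Gstm4 are the first and last of the 4, and only Gstm3 passed the test.

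Gstp1, the pi-class gene, overlapped between the groups, at 577, 1156, 652, 618 and 1308 CPM in PKLR livers against 744, 959, 649, 655 and 896 CPM in GFP livers. PKLR replicates 2 and 5 were the highest livers of both groups and replicate 1 the lowest (log2 fold change 0.16, SE 0.24, edgeR adjusted p = 0.768). Nqo1, a quinone reductase often used as a marker of NRF2 activity, was at 9.60, 3.98, 11.8, 5.38 and 4.51 CPM in PKLR livers against 11.5, 7.80, 8.88, 10.1 and 8.29 CPM in GFP livers. The PKLR livers spread more widely than the GFP livers, with coefficients of variation of 48.8% and 16.2% (log2 fold change -0.39, SE 0.28, edgeR adjusted p = 0.495). Gclc, the catalytic subunit of the enzyme that limits glutathione synthesis, averaged 344 ± 57.3 CPM in PKLR livers and 327 ± 76.0 CPM in GFP livers (log2 fold change 0.09, SE 0.17, edgeR adjusted p = 0.83). Srxn1, sulfiredoxin, which repairs over-oxidised peroxiredoxins, averaged 47.7 ± 13.6 CPM in PKLR livers and 55.8 ± 15.3 CPM in GFP livers (log2 fold change -0.21, SE 0.23, edgeR adjusted p = 0.661). None of the 3 NRF2 targets outside the transferase family was thus called, and their groups overlapped.

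**Figure D2:**
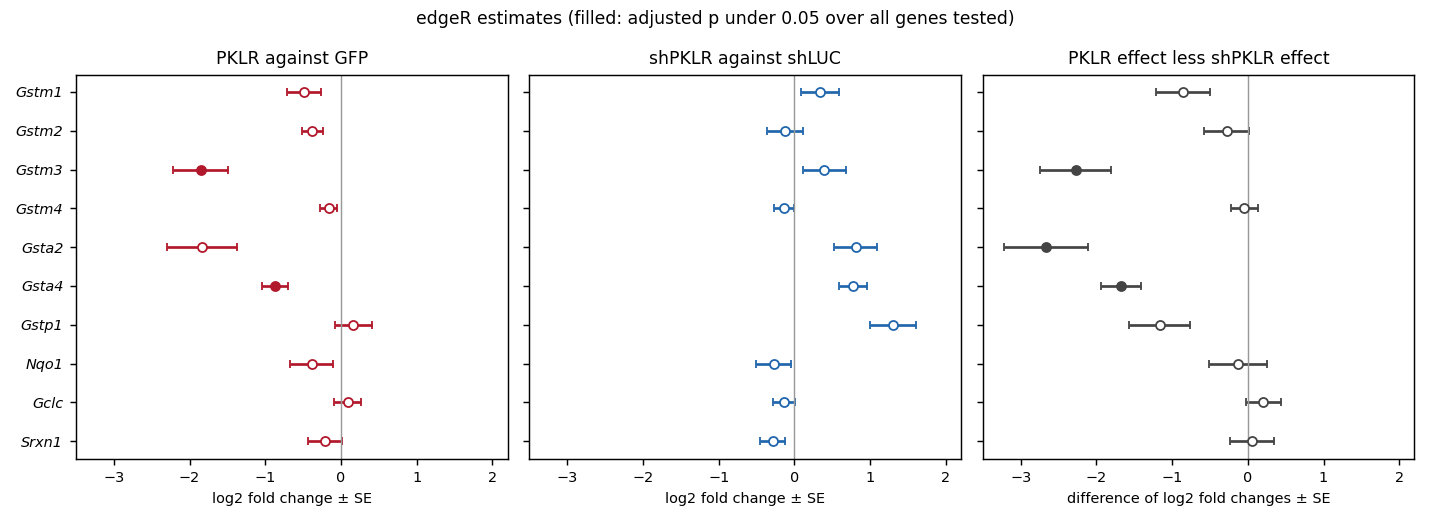
Estimated log2 fold changes of the 10 genes (points) with their SE (bars) for PKLR against GFP, for shPKLR against shLUC, and for the first less the second. Filled points passed an edgeR adjusted p of 0.05 over all genes tested: Gstm3 and Gsta4 at left, none in the middle, and Gstm3, Gsta2 and Gsta4 at right.

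Markers of other liver cells were compared between the same vector groups. Summed markers of stellate cells and fibroblasts (7 genes) ran from 122 to 234 CPM in PKLR livers and from 190.1 to 404 CPM in GFP livers, and those of macrophages (10 genes) from 100.4 to 289.8 CPM in PKLR livers and from 111 to 475 CPM in GFP livers. No marker of either list was at 0 throughout a group. Of the 7 stellate markers 0 were called by edgeR, with 6 lower at an unadjusted p under 0.05, 4 lower by DESeq2 and 1 by limma-voom, and of the 10 macrophage markers 1 fell by edgeR, Gpnmb, with 3 lower at an unadjusted p under 0.05, 2 lower by DESeq2 and 0 by limma-voom. Markers of hepatocytes, cholangiocytes, endothelial cells, lymphocytes, neutrophils and erythroid cells held 0 calls by edgeR, DESeq2 or limma-voom in either experiment, with 4 at an unadjusted p under 0.05 in overexpression and 0 in the knockdown. Among them, all 6 lymphocyte markers tested had negative estimates in overexpression (median -0.44) and all 7 positive ones in the knockdown (median 0.37). Of 6 neutrophil markers only 3 were tested, with negative estimates in overexpression (median -0.28) and positive ones in the knockdown (median 0.78). Neutrophil markers were scarce, summing to 1.25 to 7.83 CPM in GFP livers. Erythroid markers did not reverse, with 5 of 5 estimates negative in overexpression (median -0.48) and 3 of 4 in the knockdown (median -0.79). Endothelial markers had 4 of 6 positive estimates in overexpression and 5 of 6 negative ones in the knockdown. The part of these cells in the levels of Gstm3, Gsta4 and Gsta2 was not tested. In whole liver, fewer cells of a type and less RNA per cell cannot be told apart.

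The knockdown experiment addressed the reverse, a loss of Pklr. None of the 10 genes passed by edgeR, where 0.00641% of the 15611 genes tested were called. An unadjusted p under 0.05 was reached by 15% of all genes and by 3 of these, Gstp1, Gsta4 and Gsta2, all with higher estimates in shPKLR livers. Among these, DESeq2, which called 260 genes in all, called Gstp1 and Gsta4, and limma-voom called 0 of the 10. Estimates were positive for 5 and negative for 5, with a median of 0.11 against 0.022 over all genes tested.

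Gstp1 had the widest gap, at 885, 1798, 1531, 2779 and 1190.3 CPM in shPKLR livers against 1066, 646, 567, 569 and 454 CPM in shLUC livers. Apart from shLUC replicate 1, which exceeded shPKLR replicate 1, every shPKLR liver lay above every shLUC liver. The ratio of the means was 2.48 (log2 fold change 1.30, SE 0.30, edgeR adjusted p = 0.171, DESeq2 adjusted p = 0.00375, and 0.0435 in 1 edgeR fit of all 20 livers). The highest value came from shPKLR replicate 4, the deepest library and the one with the highest ratios of Gstp2 and Gstp-ps to Gstp1. Without that liver the log2 fold change was 1.02 (edgeR adjusted p = 0.219). Gstp2 averaged 814 ± 492 CPM in shPKLR livers and 289 ± 107 CPM in shLUC livers (log2 fold change 1.49, SE 0.35, edgeR adjusted p = 0.173). The 2 copies summed gave a log2 fold change of 1.36 (edgeR adjusted p = 0.171).

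Gsta4 was at 64.3, 40.0, 39.5, 64.5 and 53.4 CPM in shPKLR livers, against 24.1, 26.1, 39.3, 32.7 and 29.7 CPM in shLUC livers. Every shPKLR liver lay above every shLUC liver, by a margin under 1 CPM between shPKLR replicate 3 and shLUC replicate 3. This held for 1.41% of the 16407 genes past the filter over all 20 livers. The log2 fold change was 0.78 (SE 0.18, edgeR adjusted p = 0.171, DESeq2 adjusted p = 0.0112). Gsta2 was at 30.9, 11.7, 30.6, 20.1 and 20.4 CPM in shPKLR livers, against 9.56, 8.82, 21.1, 13.9 and 11.04 CPM in shLUC livers. Its groups overlapped, with shLUC replicate 3 above shPKLR replicates 2, 4 and 5, and shLUC replicate 4 above shPKLR replicate 2 (log2 fold change 0.81, SE 0.29, edgeR adjusted p = 0.273).

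Gstm3 was at 57.9, 38.9, 55.8, 68.9 and 44.4 CPM in shPKLR livers, against 24.5, 32.2, 30.04, 77.2 and 37.0 CPM in shLUC livers. A single liver, shLUC replicate 4, held the highest level of both groups, and the other 4 shLUC livers lay below every shPKLR liver (log2 fold change 0.39, SE 0.28, edgeR adjusted p = 0.483). Without that liver the log2 fold change was 0.77, and it did not pass in any of the 10 fits with 1 liver left out (adjusted p 0.316 to 0.788). Gstm1 averaged 1399 ± 441 CPM in shPKLR livers and 1099 ± 370 CPM in shLUC livers (log2 fold change 0.34, SE 0.25, edgeR adjusted p = 0.497), and 0.15 without shPKLR replicate 4.

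The remaining 5 genes had small negative estimates in the knockdown, and the groups overlapped for each. Nqo1 was at 7.29, 4.19, 4.91, 4.65 and 5.03 CPM in shPKLR livers, against 3.46, 5.65, 6.02, 9.37 and 6.77 CPM in shLUC livers (log2 fold change -0.27, SE 0.24, edgeR adjusted p = 0.558). Gclc ran from 228 to 366 CPM in shPKLR livers and from 298 to 381 CPM in shLUC livers, with a log2 fold change of -0.14 (SE 0.14). The ranges of Srxn1 were 25.1 to 44.9 CPM and 34.2 to 51.8 CPM in these groups, with a log2 fold change of -0.29 (SE 0.17). For Gstm2 and Gstm4 the log2 fold changes were -0.12 (SE 0.24) and -0.14 (SE 0.13). Macrophage markers summed to between 130.3 and 342 CPM in shPKLR livers and to between 142.5 and 263 CPM in shLUC livers, with all 10 estimates positive and 0 called by edgeR, DESeq2 or limma-voom (1 at an unadjusted p under 0.05). Their part in these levels was not tested.

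**Figure D3:**
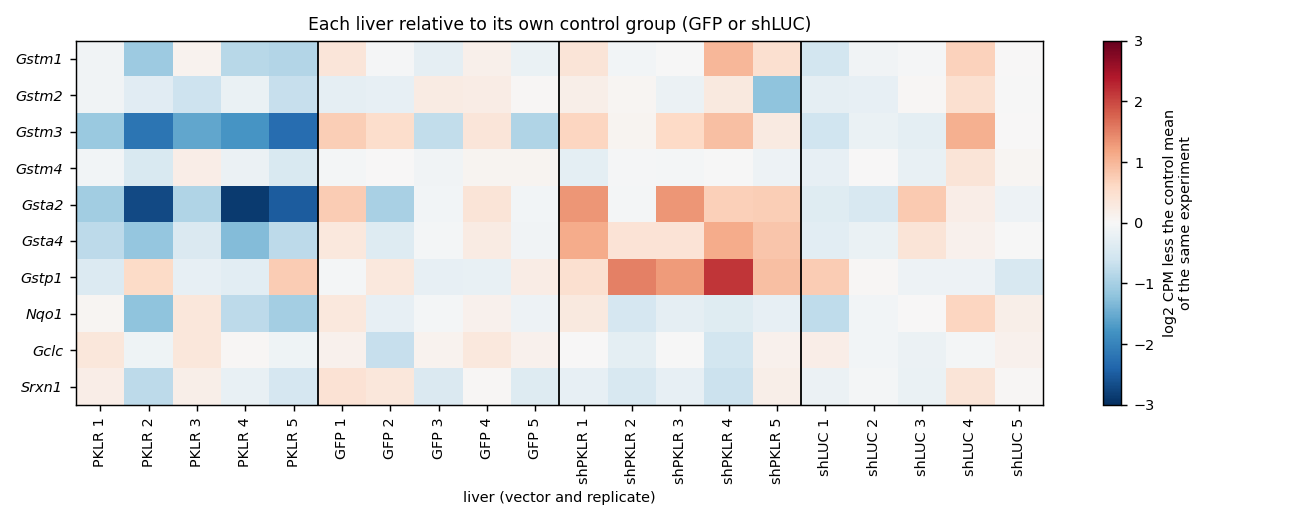
Level of each gene in each liver as log2 CPM less the control mean of its own experiment (GFP for PKLR and GFP livers, shLUC for shPKLR and shLUC livers). Blue is lower and red higher than that mean. The rows of Gstm2, Gstm3, Gsta2 and Gsta4 are blue in all 5 PKLR livers, faintly so for Gstm2, and those of Gstm3, Gsta4 and Gstp1 are red in all 5 shPKLR livers.

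A model of all 20 livers tested the difference between the PKLR effect and the shPKLR effect. Of the 10 genes, 3 had a lower PKLR than shPKLR effect, Gstm3, Gsta2 and Gsta4, and none a higher one, where 5.5% of 16407 genes were called, 2.75% lower and 2.75% higher. The difference in log2 fold change was -2.27 for Gstm3 (SE 0.47, edgeR adjusted p = 0.00924) and -2.67 for Gsta2 (SE 0.56, edgeR adjusted p = 0.00946). It was -1.67 for Gsta4 (SE 0.26, edgeR adjusted p = 0.00126). These 3 differences passed in all 20 fits with 1 liver left out, with RLE size factors and with DESeq2. For Gsta4 the effects were of nearly equal size and opposite sign (-0.87 and 0.78), whereas for Gstm3 most of the difference came from the overexpression livers (-1.85 and 0.39). Gstp1 (-1.17, SE 0.41, edgeR adjusted p = 0.0875) and Gstm1 (-0.85, SE 0.36, edgeR adjusted p = 0.144) did not pass. For Gclc (0.20, SE 0.23), Srxn1 (0.05, SE 0.29), Nqo1 (-0.13, SE 0.38), Gstm2 (-0.28, SE 0.30) and Gstm4 (-0.05, SE 0.18) the estimates lay within 1 SE of 0. The mean of both effects is large where both vectors move a gene the same way, or where 1 effect alone is large. It was called by edgeR for 0 of the 16407 genes, these 10 included (9.51% at an unadjusted p under 0.05, or 1561 genes, 57 by DESeq2, 0 by limma-voom). Gstp1 (0.73, unadjusted p = 0.00188) and Gstm3 (-0.73, unadjusted p = 0.00509) were the members with an unadjusted p under 0.05 in that test. For each, 1 effect was much the larger: 0.16 and 1.30 for Gstp1, and -1.85 and 0.39, of opposite sign, for Gstm3.

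Between the control groups, the mean was higher in GFP than in shLUC livers for 9 of the 10 genes, all but Gclc. For Gstm2, Gstm4 and Gstp1 these means were no further apart than the SD of the shLUC livers. The share of all genes with a higher mean in GFP livers is not given here. Gstm3 averaged 169 ± 77.9 CPM in GFP livers and 40.2 ± 21.2 CPM in shLUC livers, Gsta2 40.6 ± 16.7 and 12.9 ± 5.00 CPM, and Gsta4 56.8 ± 11.04 and 30.4 ± 5.99 CPM (SD, n = 5 each). Their levels in PKLR livers, at 46.2 ± 16.05, 11.2 ± 7.40 and 30.7 ± 7.29 CPM, were close to those of shLUC livers. Pklr itself was higher in shLUC than in GFP livers (479 ± 116 and 118 ± 34.5 CPM). Control vector and experiment cannot be told apart here, the tables were deposited separately and scaled together for these levels, and no test was made between the control groups.

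**Figure D4:**
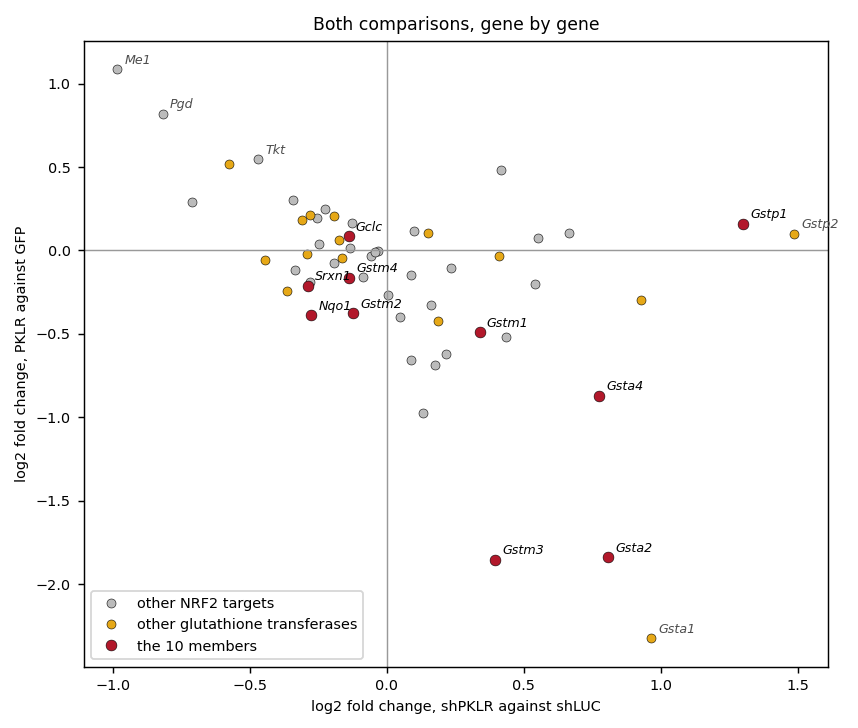
Log2 fold change of PKLR against GFP (vertical) and of shPKLR against shLUC (horizontal) for the 10 genes (red), other glutathione transferases (orange) and other NRF2 targets (grey), 1 point per gene. Gsta4, Gsta2, Gstm3 and Gsta1 lie at lower right, with negative estimates for PKLR and positive ones for shPKLR, while Me1, Pgd and Tkt lie at upper left.

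Within vector groups, levels of these genes varied together from liver to liver. Log2 CPM less the group mean, over 20 livers, gave positive Pearson correlations for 33 of the 45 pairs, with a median r of 0.277. All pairs share the same 20 libraries and their scaling, and these values describe the livers without a test. Nqo1 had the highest median correlation with the other 9 genes (0.649), followed by Gstm1 (0.609), and these genes formed the closest pair (r = 0.808, rho = 0.821). Their correlation was 0.96 in the 10 overexpression livers and 0.651 in the 10 knockdown livers, and 0.708 over all livers without the 2 most extreme in Gstm1. Over the 20 livers Gstp1 ran against the rest, with a median r of -0.302, and its strongest negative value was with Nqo1 (r = -0.717, rho = -0.717). That relation was -0.737 in the overexpression livers, -0.731 in the knockdown livers and -0.712 without the 2 livers most extreme in Gstp1. With Gstm1, Gstm2 and Gstm4, r of Gstp1 was -0.603, -0.563 and -0.659 in the overexpression livers. In the knockdown livers these values were near 0 or positive, at -0.0828, 0.136 and 0.0159, while those with the other members stayed negative. The values of Gstm2 were of both signs, with the lowest r for Srxn1 (-0.319), the highest for Gstm3 (0.256) and a median of 0.0957.

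**Figure D5:**
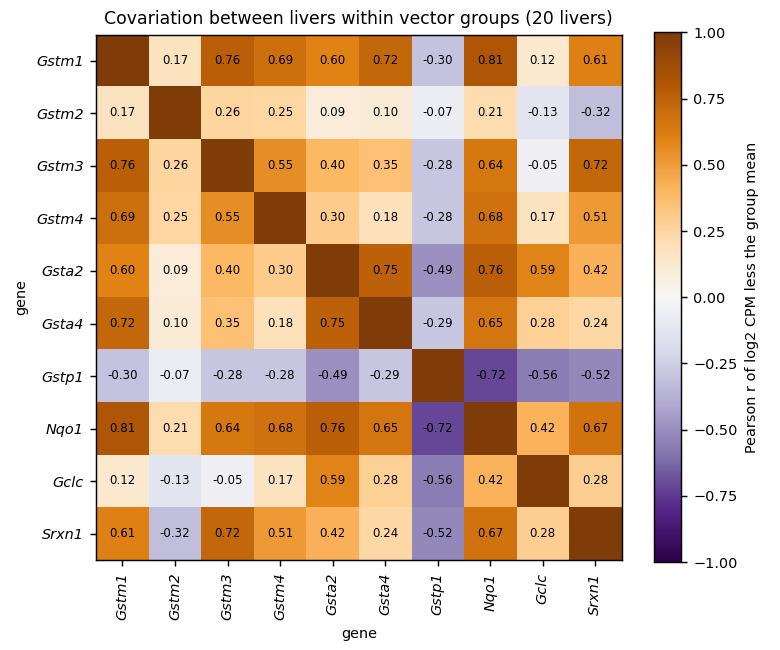
Pearson r between each pair of genes over 20 livers, computed on log2 CPM less the mean of the liver's vector group (orange positive, purple negative). Nqo1 and Gstm1 correlate with most transferases, while every off-diagonal value of Gstp1 is negative.

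By likeness of pattern over the 20 livers (log2 CPM less the control mean of the experiment), the genes nearest to Gstm3 were Sfxn3, a mitochondrial carrier of the sideroflexin family (r = 0.944), the predicted gene Gm13657 (r = 0.94) and Cd63, a tetraspanin of endosomes (r = 0.926). All 3 were scarce. Cd63 averaged 3.03 ± 1.06 CPM in PKLR livers, 7.61 ± 3.98 CPM in GFP livers, 4.18 ± 1.25 CPM in shPKLR livers and 2.61 ± 0.894 CPM in shLUC livers. Nearest to Gsta4 were Ces1b, a carboxylesterase (r = 0.947), Hsd17b6, a steroid and retinol dehydrogenase (r = 0.901), and H2-Ob, a subunit of an MHC class II-like molecule (r = 0.896). Hsd17b6 averaged 61.9 ± 13.6 CPM in PKLR livers against 138 ± 21.1 CPM in GFP livers, and 154 ± 47.1 CPM in shPKLR livers against 51.7 ± 18.5 CPM in shLUC livers.

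Over all 8 pathway lists, edgeR called 11 of 129 genes in overexpression, 7 higher and 4 lower, where 2.03% of all genes were called. The lists were chosen with earlier results of these data known. Shares of all genes, here and for each list below, are therefore given as background and cannot test whether a list is enriched. The DESeq2 counts of the lists stand beside its 1107 calls over all genes in overexpression and 260 in the knockdown. Likewise, their counts at an unadjusted p under 0.05 stand beside 18.8% of all genes in overexpression and 15% in the knockdown. Of 15 other glutathione transferases tested, none was called in overexpression (1 lower at an unadjusted p under 0.05, 1 lower by DESeq2, 0 by limma-voom), and their median log2 fold change was -0.02. In the knockdown 0 were called by edgeR or limma-voom, 7 had an unadjusted p under 0.05 (4 higher and 3 lower), and DESeq2 called 2, both higher. Gsto1, an omega-class transferase, averaged 75.2 ± 6.14 CPM in shPKLR livers and 56.3 ± 4.504 CPM in shLUC livers without overlap (log2 fold change 0.41, SE 0.11, edgeR adjusted p = 0.198). The difference between the 2 effects was called for 2 of the 15, Gsta1 (-3.31, edgeR adjusted p = 0.0307) and Gsto1 (-0.46, edgeR adjusted p = 0.0298). Over all genes, 5.5% of differences were called, 2.75% of them lower.

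Of 32 other NRF2 targets tested, 3 rose in PKLR livers and none fell by edgeR or limma-voom, where 2.03% of all genes were called. At an unadjusted p under 0.05, 5 were higher and 4 lower, and DESeq2 called 3 higher and 4 lower. The 3 that rose by edgeR were Me1, which encodes malic enzyme, and Pgd and Tkt, which encode the pentose phosphate pathway enzymes 6-phosphogluconate dehydrogenase and transketolase. Me1 averaged 344 ± 125 CPM in PKLR livers and 163 ± 25.9 CPM in GFP livers (log2 fold change 1.09, SE 0.22, edgeR adjusted p = 0.0338). Pgd averaged 70.6 ± 21.98 CPM in PKLR livers and 40.4 ± 2.70 CPM in GFP livers (log2 fold change 0.82, SE 0.17, edgeR adjusted p = 0.0362). In the knockdown 0 of the 32 passed by edgeR or limma-voom, 8 had an unadjusted p under 0.05 (4 higher and 4 lower), and DESeq2 called 1 higher and 0 lower. Me1, at -0.98 (SE 0.34), and Pgd, at -0.82 (SE 0.25), were not called there. Their differences were thus positive, 2.05 for Me1 and 1.61 for Pgd, opposite in sign to those of Gstm3, Gsta2 and Gsta4. The list held 3 called differences each way, where 2.75% of all genes were called in each direction. The lower ones were in the epoxide hydrolase gene Ephx1 (-0.98), the aldehyde oxidase gene Aox1 (-0.77) and the carbonyl reductase gene Cbr1 (-0.88). These 3 genes are named because they were called, outside the naming rule.

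None of the 12 genes of NRF2 and its regulators was called in either experiment by edgeR or limma-voom. In overexpression 2 had an unadjusted p under 0.05 and DESeq2 called 1, and in the knockdown these counts were 1 and 0. Nfe2l2, named here for its role after its values were seen, averaged 67.3 ± 12.2 CPM in PKLR livers and 76.4 ± 11.7 CPM in GFP livers, and 76.1 ± 11.7 CPM in shPKLR livers and 71.9 ± 13.7 CPM in shLUC livers. Keap1 averaged 42.0 ± 1.87 CPM in PKLR livers and 35.8 ± 1.59 CPM in GFP livers (log2 fold change 0.24, SE 0.06, edgeR adjusted p = 0.0706), and 35.7 ± 1.59 CPM in shPKLR livers and 40.7 ± 2.19 CPM in shLUC livers (log2 fold change -0.20, SE 0.09, edgeR adjusted p = 0.335). Its groups did not overlap in overexpression or in the knockdown, and the difference of its effects was called (0.42, SE 0.10, edgeR adjusted p = 0.017). The share of all genes without overlap in these directions is not given here. Gsk3b, a kinase that promotes NRF2 degradation, was at 0.18 (SE 0.07) in overexpression and -0.34 (SE 0.16) in the knockdown.

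Among 16 genes of glutathione synthesis, recycling and breakdown, 1 fell in PKLR livers and none rose by edgeR, DESeq2 or limma-voom (2 higher and 3 lower at an unadjusted p under 0.05), where 0.846% of all genes fell. It was Cth, cystathionine gamma-lyase, which makes the cysteine used for glutathione, with 176 ± 29.4 CPM in PKLR livers and 265 ± 31.2 CPM in GFP livers (log2 fold change -0.58, SE 0.13, edgeR adjusted p = 0.0427). Gss, glutathione synthetase, averaged 48.4 ± 5.25 CPM in shPKLR livers and 36.7 ± 5.33 CPM in shLUC livers (log2 fold change 0.39, SE 0.13, edgeR adjusted p = 0.258), and its difference was called (-0.63, edgeR adjusted p = 0.0324).

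Of 18 genes of CAR, PXR and AhR with their targets, 1 rose and 2 fell in PKLR livers, where 2.03% of all genes were called. At an unadjusted p under 0.05, 5 were higher and 5 lower, and DESeq2 called 3 higher and 4 lower. By edgeR, 6 differences were called, 2 higher and 4 lower, where 5.5% of all genes were called. Cyp3a11, the PXR-responsive cytochrome P450, fell, at 841 ± 276 CPM in PKLR livers and 1923 ± 441 CPM in GFP livers (log2 fold change -1.18, SE 0.23, edgeR adjusted p = 0.0296), as did Cyp2c55. Ugt1a1, a bilirubin-conjugating enzyme, rose, at 47.9 ± 8.10 CPM in PKLR livers and 28.4 ± 6.76 CPM in GFP livers (log2 fold change 0.77, SE 0.17, edgeR adjusted p = 0.043). Cytochrome P450 genes of these families have close copies, so their counts carry the same uncertainty as those of the transferases.

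Pericentral hepatocyte genes, those of the cells around the central vein, held 2 rises (Glul and Nkd1) among 15 tested in overexpression, where 1.19% of all genes rose, with 13 of 15 estimates positive. At an unadjusted p under 0.05, which 18.8% of all genes reached, 8 were higher and 0 lower, and DESeq2 called 3 higher. Male-biased liver genes held 1 rise (Cyp2d9) among 15, with 4 higher and 0 lower at an unadjusted p under 0.05 and 3 higher by DESeq2. Female-biased genes held 1 fall (Cyp3a44) among 11 tested, where 0.846% of all genes fell and Cyp3a41a had an adjusted p of 0.0881. Of these 11, 1 was higher and 5 were lower at an unadjusted p under 0.05, and DESeq2 called 1 higher and 4 lower. By edgeR, 4 of 13 differences were called, all lower, where 2.75% of all genes were called lower. In the knockdown edgeR and limma-voom called none of the 129 genes of all 8 lists, and DESeq2 called 5, of which 4 were higher and 1 lower. An unadjusted p under 0.05 was reached by 28 of the 129, 15 higher and 13 lower, and by 15% of all genes. Mup20, a male-biased urinary protein gene with near-identical relatives, was at 17790 ± 6807 CPM in shPKLR livers and 6741 ± 3009.6 CPM in shLUC livers without overlap (log2 fold change 1.39, SE 0.32, edgeR adjusted p = 0.171). Gstp1 is itself known as more abundant in livers of male than female mice.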

How the data were processed

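Each experiment has 1 table of raw counts, deposited by the authors as whole numbers without normalization. Per the labels' protocols, libraries were made from total RNA of frozen liver with a stranded kit. The submitters' processing notes name HISAT2, DESeq2, GRCm38 and mm10. Not given in the sources used here: how reads were counted, with which strand setting, and what became of reads with several matches.

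Each column was matched to a liver by its name (0 unmatched). No libraries held identical counts. Symbols came from the GENCODE annotation of GRCm38 (26146 of 26286 and 26912 of 27052 identifiers matched), and promoters from RefSeq. Counts were tested in R 4.3.3 by the robust quasi-likelihood test of edgeR 4.0.16, with filterByExpr, TMM scaling within the experiment, Benjamini-Hochberg adjustment over all genes tested and a threshold of 0.05. A model of all 20 livers (16407 genes past the filter, of 25238 in both tables) gave the difference and the mean of the 2 effects. SE is the size of the log2 fold change divided by the square root of F. CPM values used 1 TMM scaling of all 20 livers, with a prior count of 2 on the log2 scale.

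Alternatives were RLE size factors, other filters, DESeq2 1.42.0, limma-voom (limma 3.58.1), a replicate block, a thinned library, ribosomal and mitochondrial genes left out, 1 fit of all livers, near-identical copies summed (over 95% identity, measured on coding bases in place of the intended protein identity) and each liver left out. The steps were tested on simulated counts. The 10 genes and the lists (8 pathway lists, 8 cell type lists) were chosen with earlier results of these data known. Named from each pathway list were up to 4 called genes by smallest p, filled up to 2, and for Gstm3 and Gsta4 the 3 genes of most similar pattern. Of the list symbols, Gsta13 and Tf were not matched. The same rule named copies over that identity, of which Gm3776 was not analysed here.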

Additional observations from a re-analysis of the deposited data

Results flagged for a closer look

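Gstm3, Gsta2 and Gsta4 were flagged because the effects of the 2 vectors differed by the test of the difference itself, by -2.27, -2.67 and -1.67 on the log2 scale (PKLR effect less shPKLR effect). Of the stretches of 50 bases in their transcripts, 49.8% for Gsta2, 28.8% for Gstm3 and 0% for Gsta4 recur in another gene. In 3 of the 40 combinations of a gene and a vector group, 1 liver lay far from the other 4, and chance flags about 1 in 20. Gstm3 was at 77.2 CPM in shLUC replicate 4, the highest of its group. Nqo1 was at 7.29 CPM in shPKLR replicate 1, the highest of its group. Gclc was at 197 CPM in GFP replicate 2, the lowest of its group.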

How the results depend on the processing

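Of 620 values of the 10 genes under other settings, 581 kept their direction and their side of the threshold. The 322 overexpression calls became 1107 with DESeq2, 544 with the replicate block and 128 to 469 with 1 liver left out. Of the 322, 58.4% were higher, against 35.5% in 1 fit of all 20 libraries. The 1 knockdown call became 7 with RLE size factors, 17 with no filter, 260 with DESeq2, 8 with limma-voom, 3 with the block, 7 with the deepest library thinned, 7 without mitochondrial and ribosomal RNA genes, 114 in 1 fit of all 20 libraries and 1 to 12 with 1 liver left out. The 902 differences became 1626 with DESeq2 and 485 to 1384 with 1 liver left out, and the 0 common calls became 1 with no filter, 57 with DESeq2, 4 with the block and 0 to 14 with 1 liver left out. The cause of these shifts was not tested.

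Sign changes came only when 1 liver was left out, at estimates near 0. For overexpression, Gstp1 ran from -0.05 (without PKLR replicate 5) to 0.28 and Gclc from -0.05 (without GFP replicate 2) to 0.17. In the knockdown Gstm2 ran from -0.24 to 0.06 and was above 0 without shLUC replicate 4 (0.02) or shPKLR replicate 5. The differences of Gstm4 (-0.16 to 0.03), Nqo1 (-0.4 to 0.03) and Srxn1 (-0.06 to 0.2) spanned 0. Calls of Gstm3 and Gsta4 in overexpression, and the tools that added Gsta2, Gsta4 and Gstp1, are given with those genes. Same-numbered livers correlated between -0.199 and 0.352 in their deviations, and 3 of 10 pairs correlated best with their own number. With 5 livers per group, this check could not settle whether replicate numbers pair the livers. With the block Gsta2 passed in overexpression (-1.97, adjusted p = 0.0367), and no other call among the 10 genes changed.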
